A study of Mus musculus with 70 samples.

Results

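The genes described here are 7 transcripts that encode interferon-induced enzymes of small-molecule metabolism: Ido1, Kynu, Nos2, Gch1, Acod1, Ch25h and Wars. They were taken by symbol from a table of 35197 genes, which lists the tryptophanyl-tRNA synthetase as Wars, and all 7 symbols were found. The table holds 70 RNA-seq libraries of 8 mouse cancer cell lines. Cells were kept for 48 h with interferon beta (IFNb, 1000 activity units/mL) or interferon gamma (IFNg, 100 ng/mL), or were left without either (NS). For the NS libraries the labels give no time. The pancreatic cancer lines were Panc02.3 and KPC.2, the colorectal ones MC38.7 and CT26.2, and the melanoma lines YUMMER1.7 and B16.1; Renca came from a renal and LLC from a lung cancer. Renca and CT26.2 have a BALB/c background and the remaining 6 a C57BL/6 one. All lines were grown in DMEM with serum, and no added gene or deletion is named in the labels. Line and treatment make 24 groups, 22 with 3 libraries and 2 with 2 (IFNg-treated LLC and Renca without cytokine). The labels do not say whether replicates were separate cultures, so the p-values reflect how far libraries of a group differ, and that spread may be technical.

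Interferons bind cell surface receptors that activate JAK kinases and STAT transcription factors. The factor IRF1 is induced early by IFNg and carries part of its response, and IFNb acts mainly through a complex that holds IRF9. Among the induced genes are enzymes that deplete a nutrient or make a small effector molecule, best known from macrophages. Ido1 opens the tryptophan ring on the way to kynurenine, and Kynu cleaves kynurenine further down that pathway. Nos2, the inducible nitric oxide synthase, makes nitric oxide from arginine and needs tetrahydrobiopterin, whose synthesis begins with Gch1. Acod1 makes itaconate from an intermediate of the citric acid cycle, and Ch25h makes 25-hydroxycholesterol. Wars charges tRNA with tryptophan, the amino acid that Ido1 consumes.

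In GRCm38.p6 Kynu lies on chromosome 2 (43555258 to 43683048), Ido1 on 8 (24584133 to 24596952), Nos2 on 11 (78920787 to 78960226), Wars on 12 (108860030 to 108894175), Gch1 on 14 (47153895 to 47189413), Acod1 on 14 (103047012 to 103056573) and Ch25h on 19 (34473783 to 34475148). RefSeq promoter sequences matched for 3 of the 7 members, Acod1, Gch1 and Ch25h. These 3 are shown because no promoter sequence matched for the other members. Acod1 passed with IFNg in 4 lines and with IFNb in 0, Gch1 with IFNb in 4 and IFNg in 2, and Ch25h with IFNb in 1. Each line gives the 250 bases before the start site, 5′ to 3′ on the gene's strand (RefSeq, GRCm38.p6), and capitals mark the motifs found.
Acod1, chr14:103046762-103047011, plus strand: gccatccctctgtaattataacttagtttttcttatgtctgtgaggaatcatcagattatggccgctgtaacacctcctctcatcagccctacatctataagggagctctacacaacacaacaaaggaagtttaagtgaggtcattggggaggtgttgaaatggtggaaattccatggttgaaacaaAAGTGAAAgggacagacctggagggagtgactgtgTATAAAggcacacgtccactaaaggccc
Gch1, chr14:47189414-47189663, minus strand: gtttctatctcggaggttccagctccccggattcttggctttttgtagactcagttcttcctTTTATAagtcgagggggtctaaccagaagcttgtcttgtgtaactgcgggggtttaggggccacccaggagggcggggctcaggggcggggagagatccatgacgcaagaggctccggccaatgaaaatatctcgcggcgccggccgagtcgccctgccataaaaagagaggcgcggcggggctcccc
Ch25h, chr19:34475149-34475398, minus strand: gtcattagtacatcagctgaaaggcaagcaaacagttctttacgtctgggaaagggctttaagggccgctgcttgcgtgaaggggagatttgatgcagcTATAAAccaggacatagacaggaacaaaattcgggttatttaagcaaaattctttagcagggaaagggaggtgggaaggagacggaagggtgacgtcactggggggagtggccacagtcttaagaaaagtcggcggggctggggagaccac
Of 4 patterns searched on both strands of the window from 250 bases before to 50 after the start, none was found in the 3 genes: the interferon-stimulated response element (ISRE; in 3.44% of the 32851 promoters in the table), TTCNNNGAA, the gamma-activated sequence (8.3%), the NF-kB motif (4.59%), and TGATGNAA, bound by ATF4 with C/EBP (3.97%). After that result the shorter AANNGAAA, the core bound by IRF factors and contained in the ISRE (23.9% of promoters), and TATAAA (13.6%) were searched too. Acod1 held AAGTGAAA at position -63 and TATAAA at -28. Gch1 held TATAAA on the opposite strand from -188, and Ch25h held it from -151. A match or its absence in so short a window is a description of these letters only.

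Library totals ran from 668355 to 28550816 counts with a median of 8644887. Replicates differed by more than sampling noise in every group (chi-square per degree of freedom from 1.54 to 16.9), so no pair was counted as 1 library, and whether they came from 1 culture cannot be read from this. The largest gaps were between replicate 2 and the other 2 libraries of Renca with IFNg, between replicates 1 and 2 of unstimulated Panc02.3, between replicate 1 and the others of CT26.2 with IFNb, and between the 2 unstimulated Renca libraries. Of the leukocyte markers, Ptprc had 0 to 6 counts and Adgre1 0 or 1 count per group. The summed level of the 12 leukocyte markers lay between 1.60 and 180 CPM (counts scaled to 1000000 per library after TMM normalization) over libraries, and Cd14 was over 1000 counts in every group of KPC.2 and Panc02.3. The 7 melanocyte markers summed to 9124 to 20390 CPM in B16.1 but to only 15.0 to 25.8 CPM in YUMMER1.7, the other line labelled melanoma. The 7 epithelial markers summed to at most 42.8 CPM in CT26.2 and 3.05 CPM in MC38.7, both labelled colorectal. Irf1, a transcription factor of the response, and Socs1, its feedback inhibitor, rose with IFNg in all 8 lines, Irf1 by log2 2.88 in MC38.7 to 6.04 in B16.1 and Socs1 by 1.69 in MC38.7 to 6.69 in B16.1. Irf1 rose with IFNb in 6 lines, by 0.29 in Panc02.3 to 2.03 in LLC, with 0.13 in Renca (adjusted p = 0.38) and -0.06 in YUMMER1.7 (adjusted p = 0.82). Socs1 rose with IFNb in B16.1, KPC.2, LLC and MC38.7, by 0.89 to 2.11. Every test is the quasi-likelihood test of edgeR, adjusted by Benjamini-Hochberg over the 16147 genes past the filter on low counts. "Rose" and "fell" mean an adjusted p under 0.05.

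Of the 7 members 6 passed that filter. Kynu did not: it had 30 counts over all 70 libraries, at most 3 in any one, and 0 in 48. Over the 8 lines the 6 tested members gave 24 rises and 0 falls with IFNg among 48 tests, where 12% of all genes and lines rose and 12.4% fell. The 0 falls are by edgeR, DESeq2 and limma-voom alike, with 2 falls at an unadjusted p under 0.05, both of Gch1. Ido1, Acod1 and Ch25h had 0 counts in 32, 37 and 45 of the 70 libraries. Where the unstimulated group was at or near 0 counts a fall could not be called, so the 0 falls and the 12.4% are not like for like. With IFNb there were 8 rises and 2 falls, against 7.66% and 8.21% of all genes and lines. IFNg exceeded IFNb in 24 tests and was below it in 4, against 13.9% and 12.6%. IFNg raised 5 members in KPC.2, 4 in LLC, 4 in YUMMER1.7, 3 in B16.1, 3 in Panc02.3, 2 in CT26.2, 2 in MC38.7 and 1 in Renca. The share of all genes that rose was 13.8%, 6.65%, 9.79%, 27.6%, 23.2%, 4.97%, 3.89% and 6.04% in those lines, and the share that fell 15.8%, 4.6%, 11%, 26.5%, 31.6%, 3.86%, 0.886% and 5.16%. IFNb raised 4 members in LLC (17.6% of all genes), 2 in MC38.7 (13.8%), 1 in KPC.2 (2.52%), 1 in B16.1 (14.6%), and 0 in CT26.2 (1.97%), Panc02.3 (3.33%), Renca (7.1%) and YUMMER1.7 (0.384%). The 2 falls with IFNb were Wars in MC38.7 (16.8% of all genes fell) and Nos2 in Renca (6.82%). IFNg and IFNb were each compared with the same unstimulated libraries. In bulk RNA a change in every cell and a change in some of the cells cannot be told apart.

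Ido1 rose with IFNg in 7 of the 8 lines and with IFNb in 0 by edgeR (1 at an unadjusted p under 0.05, 0 in DESeq2 and 1 in limma-voom). In KPC.2 it went from 1.67, 1.84 and 2.35 CPM in the unstimulated libraries to 308, 329.5 and 315 CPM with IFNg, a 167-fold difference (log2 7.38 ± 0.15 SE, adjusted p = 1.36e-33). With IFNb the 3 KPC.2 libraries stood at 1.96, 1.93 and 2.81 CPM, within the range of the unstimulated ones apart from the highest. That highest value was 2 counts in replicate 3, the library with the lowest total of the series (668355). With IFNg the other lines reached far lower levels than KPC.2.

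In Panc02.3, the other pancreatic line, Ido1 stood at 0.119, 0.165 and 0.166 CPM unstimulated and at 11.8, 10.6 and 8.82 CPM with IFNg, a 71.1-fold difference (log2 6.03 ± 0.34 SE, adjusted p = 1.11e-18). In Renca it had 1 count in 2 unstimulated libraries and 89 in 3 libraries with IFNg (2.05, 1.85 and 2.35 CPM), a ratio of 43.9 with a 95% counting interval that starts at 7.69. In YUMMER1.7 it had 0 counts unstimulated and 32 with IFNg (1.76, 1.55 and 0.794 CPM), at least 14.2-fold higher when the group at 0 is set to 3 counts. LLC went from 0 counts in 3 libraries to 42 in 2 (0.936 and 0.869 CPM), at least 14.4-fold higher. These 4 lines had no overlap between IFNg and unstimulated libraries.

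MC38.7 had 3 counts of Ido1 unstimulated and 62 with IFNg (0.917, 0.829 and 0.687 CPM), a ratio of 9.81 with a counting interval from 3.20. In CT26.2 the counts were 0 and 7 (0.392, 0.373 and 0.804 CPM), at least 3.42-fold higher. The CT26.2 call (adjusted p = 0.00791) rests on few reads, since it was lost without the IFNg library of replicate 3 (adjusted p = 0.136), without the unstimulated library of replicate 1 (adjusted p = 0.0613) and when the line was fitted alone (adjusted p = 0.192). B16.1 had 0 Ido1 counts in all 9 of its libraries, which allows up to 0.118 CPM over the IFNg group by counting error alone, although Irf1 rose there. Leaving out 1 library moved the fitted log2 change of Ido1 from 5.12 to 7.35 (without replicate 2) or 4.45 (without replicate 3 of unstimulated Renca), from 3.11 to 3.98 (without replicate 3 of unstimulated MC38.7) and from 5.61 to 4.96 (without replicate 3 of CT26.2 with IFNg), and other libraries moved it less.

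Against IFNb, Ido1 was also higher with IFNg in those 7 lines, by 157-fold in KPC.2, a ratio of 88.9 in Panc02.3 with 3 counts in the IFNb group, at least 25.9-fold in Renca, at least 11.4-fold in YUMMER1.7, a ratio of 11.3 in LLC with 3 counts in the IFNb group, 4.18-fold in MC38.7 and at least 2.45-fold in CT26.2. The CT26.2 difference (adjusted p = 0.0421) (2.51% of all genes) was lost when replicate numbers entered as a block (adjusted p = 0.153), in DESeq2 (adjusted p = 0.0751), without the filter on low counts (adjusted p = 0.0552), when the line was fitted alone (adjusted p = 0.416), and without each of 4 single libraries: IFNb replicate 1 (adjusted p = 0.237), 2 (adjusted p = 0.0993) or 3 (adjusted p = 0.0572) and IFNg replicate 3 (adjusted p = 0.259). In LLC the fitted log2 difference of 3.31 became 6.14 without replicate 3 of the IFNb group, which held all 3 of its counts, and in Panc02.3 it went from 6.32 to 6.97 without replicate 2 of that group. With IFNb alone LLC had 3 counts in 1 library against 0 (adjusted p = 0.0653), and MC38.7, with 7 counts against 3, passed in limma-voom (log2 1.23, adjusted p = 0.0361) but not in edgeR (1.12, adjusted p = 0.366). The test that the IFNg response of Ido1 was equal in the 8 lines gave an adjusted p of 0.0506, where 69.2% of all genes differed. Over KPC.2, MC38.7, Panc02.3 and Renca, the 4 lines with counts in both groups, a selection made after seeing the data, its adjusted p was 0.00695.

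**Figure D1:**
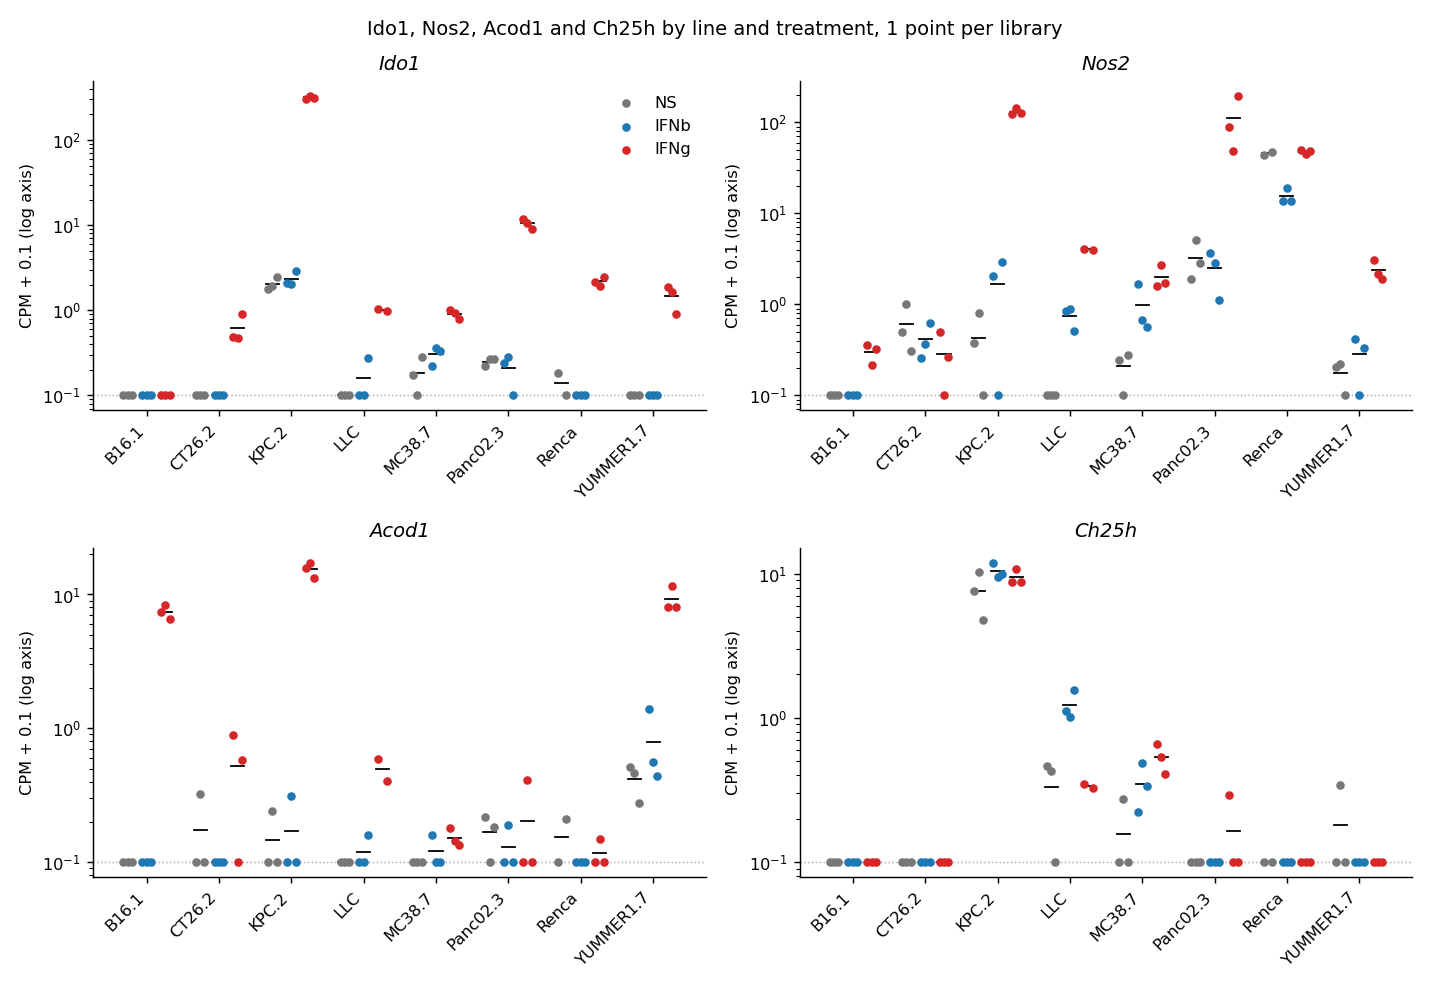
Levels of Ido1, Nos2, Acod1 and Ch25h in every library, as CPM + 0.1 on a log axis, by line (x axis) and treatment (colour), with black bars for group means and the dotted line for 0 counts. Ido1 with IFNg stands at 308 to 329.5 CPM in KPC.2 and on the dotted line in B16.1, while Ch25h is high in KPC.2 under every treatment.

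Of the other genes of tryptophan uptake and kynurenine metabolism, 6 of 12 passed the filter. Kynu itself had 4 counts in the IFNg group of MC38.7 and Renca and 3 or fewer in the other IFNg groups, and no fold was taken. Tdo2, Kmo, Haao, Aadat, Acmsd and Qprt, which start or carry on kynurenine breakdown, did not pass the filter either. With IFNg 2 of the 6 tested genes rose and 1 fell over the mean of the lines (18.3% and 23.7% of all genes), and 0 rose and 2 fell with IFNb (13% and 17.3%). Here and below, the SE of a mean over lines reflects the spread between libraries, not between lines. Ido2, the paralog of Ido1 with weaker activity on tryptophan, rose with IFNg by log2 3.09 ± 0.50 (adjusted p = 7.6e-07). It rose in 6 lines, by 2.27 in CT26.2 to 5.23 ± 0.40 in KPC.2, and did not pass in B16.1 (2.04, adjusted p = 0.34) and Renca (2.12, adjusted p = 0.2). Slc3a2, a chain of the transporter that brings in large neutral amino acids such as tryptophan, rose by 0.45 ± 0.03, most in Panc02.3 (1.73) and KPC.2 (0.79). Afmid, which hydrolyses the product of Ido1, fell by 0.60 ± 0.06 with IFNg and by 0.31 ± 0.06 with IFNb. Kyat1, which turns kynurenine into kynurenic acid, fell by 0.26 ± 0.08 with IFNb.

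In KPC.2, where Ido1 was highest, 4 of the 6 genes rose with IFNg and 0 fell (13.8% and 15.8% of all genes). The 2 largest were Ido2 and Kyat3 (1.81 ± 0.22). The aryl hydrocarbon receptor binds kynurenine and related ligands. Of that receptor and its targets 7 of 7 passed the filter. By edgeR 0 rose and 0 fell with IFNg in the average of the 8 lines (18.3% and 23.7% of all genes). At an unadjusted p under 0.05 there was 1, Tiparp. With IFNg 2 rose in KPC.2 (13.8% of all genes), Cyp1b1 (0.81 ± 0.08) and Tiparp (0.52 ± 0.13). With RLE size factors 1 gene of this list rose in that average. With IFNb 2 of the 7 fell on the mean (17.3% of all genes), Ahrr (by 0.70 ± 0.27) and Arnt (by 0.13 ± 0.03). In KPC.2 Cyp1b1 rose with IFNb by 0.93 ± 0.08 and Ido1 did not rise. A link between Ido1 and these genes was not tested.

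Nos2 rose with IFNg in 5 lines, and its unstimulated level was highest in Renca. In KPC.2 it went from 0.278, 0.709 and 0 CPM to 123, 143 and 128 CPM, a 344-fold difference (log2 8.39 ± 0.45 SE, adjusted p = 4.35e-22). In Panc02.3 it went from 1.78, 4.96 and 2.74 CPM to 88.5, 47.8 and 195 CPM, a 34.9-fold difference (log2 5.18 ± 0.31 SE, adjusted p = 1.96e-20). The 3 Panc02.3 libraries with IFNg were widely spread, and the lowest was still above the highest unstimulated one.

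LLC had 0 counts of Nos2 in 3 unstimulated libraries and 183 in 2 with IFNg (3.94 and 3.89 CPM), at least 62.9-fold higher. YUMMER1.7 had 2 counts unstimulated and 51 with IFNg (2.97, 2.07 and 1.79 CPM), a ratio of 33.8 with a counting interval from 8.90. MC38.7 went from 4 counts to 143 (1.47, 2.58 and 1.61 CPM), a 17.0-fold difference (adjusted p = 0.00192). Leaving out 1 library moved the log2 change from 8.39 to 9.45 in KPC.2 (without unstimulated replicate 2), from 5.18 to 4.55 in Panc02.3 (without IFNg replicate 3) and from 4.84 to 4.23 in YUMMER1.7 (without unstimulated replicate 3), all still past the test. CT26.2 had 2 to 8 counts in each group, and B16.1 had 0 counts unstimulated and 5 with IFNg (log2 4.04 ± 3.01 SE, adjusted p = 0.275). The B16.1 difference passed in DESeq2 (adjusted p = 0.0394) and without the filter on low counts (adjusted p = 0.0319).

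Renca had the highest level without cytokine. Its 2 unstimulated libraries held 44.0 and 47.7 CPM of Nos2 and its 3 IFNg libraries 49.2, 44.7 and 48.8 CPM, ranges that overlap (log2 0.05 ± 0.24 SE, adjusted p = 0.994). With IFNb the 3 libraries held 13.7, 19.0 and 13.7 CPM, all below the unstimulated ones, and Nos2 fell by 1.57 ± 0.25 on the log2 scale, a ratio of 0.338 (adjusted p = 4.26e-06). In LLC and MC38.7 the direction with IFNb was the opposite. LLC had 23 counts of Nos2 with IFNb (0.756, 0.793 and 0.408 CPM) against 0, at least 9.76-fold higher (adjusted p = 0.0105). MC38.7 had 37 with IFNb (1.57, 0.578 and 0.469 CPM) against 4, a 9.32-fold difference (log2 3.07 ± 1.11 SE, adjusted p = 0.0300).

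The MC38.7 call with IFNb was lost without IFNb replicate 1, which held 26 of the 37 counts (log2 2.21, adjusted p = 0.292), without unstimulated replicate 1 (adjusted p = 0.0723) or 2 (adjusted p = 0.104), in limma-voom (adjusted p = 0.0505) and when replicate numbers entered as a block (adjusted p = 0.0505). The response of Nos2 differed between lines for IFNg (adjusted p = 6.41e-18; 69.2% of all genes) and for IFNb (adjusted p = 0.000334; 48.2% of all genes). Over the 6 lines with counts in both groups, chosen after seeing the data, these were 3.04e-18 and 0.00554. IFNg exceeded IFNb in KPC.2 (129-fold), Panc02.3 (41.2-fold), YUMMER1.7 (13.7-fold), LLC (6.45-fold) and Renca (3.05-fold), and in MC38.7 the 1.82-fold difference did not pass (adjusted p = 0.240) except without the filter on low counts (adjusted p = 0.0125). The YUMMER1.7 difference was lost without IFNb replicate 2 (log2 from 3.67 to 3.05, adjusted p = 0.0550). In KPC.2 the log2 difference of 7.0 became 8.4 without IFNb replicate 1 and 5.95 without replicate 2, and in Panc02.3 the 5.43 became 4.81 without IFNg replicate 3.

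Of the other genes of arginine and nitric oxide metabolism 10 of 11 passed the filter, all but Arg1. With IFNg 1 rose and 3 fell when the 8 lines were averaged (18.3% and 23.7% of all genes). With IFNb 1 rose and 2 fell (13% and 17.3% of all genes). Odc1, which makes putrescine from ornithine, rose by 0.31 ± 0.02 with IFNg and 0.34 ± 0.02 with IFNb. The IFNg change of Odc1 was 2.20 ± 0.06 in Panc02.3, while in KPC.2 it fell by 0.42 ± 0.07. Nos1, the neuronal nitric oxide synthase, fell by 1.12 ± 0.40 with IFNg, and it had over 100 counts only in the groups of MC38.7 and Renca. Ddah1, which degrades an inhibitor of nitric oxide synthases, fell by 0.24 ± 0.05 with IFNg, and Ddah2 fell by 0.52 ± 0.09 with IFNb. In KPC.2, where Nos2 rose most, Ass1, which helps to rebuild arginine from citrulline, rose with IFNg by 1.32 ± 0.22 and Slc7a1, an arginine transporter, by 0.81 ± 0.15.

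Gch1 rose in 4 lines with IFNb and in 2 with IFNg. With IFNb it rose in KPC.2 from 16.13, 13.5 and 13.6 CPM to 31.7, 35.5 and 32.3 CPM (log2 1.21 ± 0.14 SE, adjusted p = 6.84e-10), in MC38.7 from 0.645, 1.30 and 1.53 CPM to 1.88, 2.95 and 2.58 CPM (1.10 ± 0.27, adjusted p = 0.000914), in B16.1 from 2.12, 1.48 and 2.50 CPM to 3.56, 3.84 and 4.24 CPM (0.90 ± 0.25, adjusted p = 0.0044), and in LLC from 9.52, 9.59 and 10.8 CPM to 17.2, 16.6 and 19.5 CPM (0.85 ± 0.11, adjusted p = 2.15e-09). In each of these lines every IFNb library lay above every unstimulated one. In CT26.2, Panc02.3, Renca and YUMMER1.7 the groups overlapped and the log2 changes lay between -0.03 and 0.16.

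With IFNg Gch1 rose in B16.1, to 5.75, 7.28 and 6.40 CPM (log2 1.66 ± 0.22 SE, adjusted p = 2.63e-09), and in KPC.2, to 22.9, 25.1 and 23.6 CPM (0.71 ± 0.13, adjusted p = 6.08e-06). In YUMMER1.7 all 3 IFNg libraries (10.1, 10.97 and 12.9 CPM) were above the unstimulated ones (8.49, 8.75 and 8.84 CPM), and the change of 0.36 ± 0.15 did not pass (adjusted p = 0.0696) except in DESeq2 (0.38, adjusted p = 0.0326) and with RLE size factors (0.38, adjusted p = 0.05, just under the threshold). LLC and MC38.7 stood slightly lower with IFNg (-0.26, adjusted p = 0.206, and -0.64, adjusted p = 0.318), without passing. IFNg was below IFNb in LLC (log2 -1.11 ± 0.12, adjusted p = 1.95e-11), MC38.7 (-1.75 ± 0.25, adjusted p = 1.09e-07) and KPC.2 (-0.50 ± 0.13, adjusted p = 0.00209), and above it in B16.1 (0.76 ± 0.20, adjusted p = 0.000875). The KPC.2 difference was lost without IFNb replicate 2 (-0.42, adjusted p = 0.0769).

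The lines differed in the Gch1 response to IFNb (adjusted p = 7.7e-10; 48.2% of all genes), to IFNg (adjusted p = 5.12e-09; 69.2%) and in the difference between the cytokines (adjusted p = 1.4e-13; 70.1%). Unstimulated Gch1 was highest in Renca (207 ± 8.10 CPM, SD, n = 2), then CT26.2 (151 ± 13.5, n = 3), Panc02.3 (37.5 ± 4.0), KPC.2 (14.4 ± 1.5), LLC (9.97 ± 0.721), YUMMER1.7 (8.69 ± 0.181), B16.1 (2.03 ± 0.516) and MC38.7 (1.16 ± 0.460). Only B16.1 and MC38.7 among neighbours in this order had overlapping libraries. The 2 lines from BALB/c mice were those with the highest level, and both showed little change with either cytokine. With 2 such lines, strain and line cannot be told apart.

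**Figure D2:**
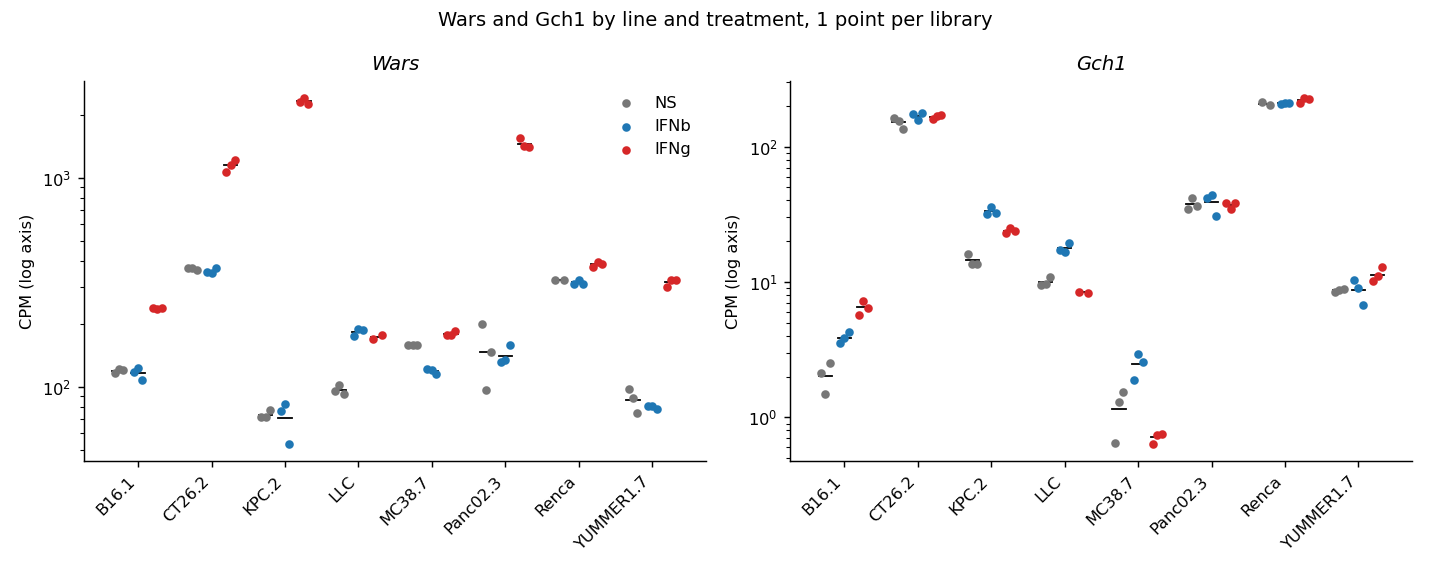
Levels of Wars and Gch1 in every library, in CPM on a log axis, by line (x axis) and treatment (colour), with black bars for group means. The IFNg libraries of Wars stand apart in KPC.2, Panc02.3, CT26.2, YUMMER1.7 and B16.1, and the IFNb libraries of Gch1 stand above the unstimulated ones in B16.1, KPC.2, LLC and MC38.7.

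**Figure D3:**
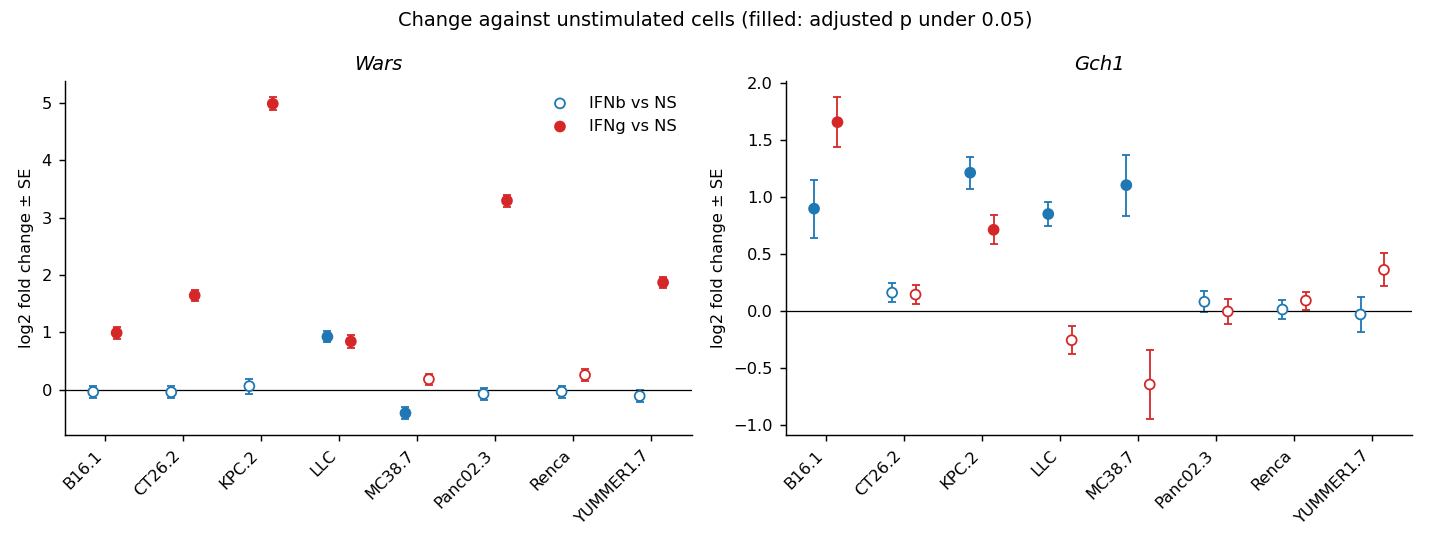
log2 fold change of Wars and Gch1 against unstimulated cells of the same line (x axis), with SE bars, filled where the adjusted p is under 0.05. Wars changes mostly with IFNg, up to 4.98 in KPC.2, while Gch1 rises with IFNb in 4 lines and with IFNg in 2.

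Of the 6 other genes of tetrahydrobiopterin synthesis, recycling and control, all passed the filter. With IFNg 0 rose and 3 fell when the 8 lines were averaged, and with IFNb 1 rose and 4 fell (18.3% and 23.7%, and 13% and 17.3% of all genes). Gchfr, which mediates feedback inhibition of the Gch1 enzyme, fell with IFNg by 0.65 ± 0.10, including 1.73 ± 0.19 in Panc02.3 and 0.44 ± 0.16 in KPC.2, and with IFNb by 0.36 ± 0.10. Pts, the enzyme after Gch1, fell by 0.16 ± 0.05 with IFNg and 0.18 ± 0.04 with IFNb. Qdpr, which recycles the cofactor, fell by 0.11 ± 0.03 with IFNg. In Renca, where Gch1 was highest, its level did not pass the test with either cytokine.

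Acod1 rose with IFNg in 4 lines and with IFNb in 0. In KPC.2 it went from 0, 0.142 and 0 CPM to 15.6, 17.2 and 13.2 CPM, from 1 count to 334, a ratio of 280 with a counting interval from 49.9 (adjusted p = 1.49e-13). In B16.1, the line without Ido1 counts, it went from 0 counts in 6 libraries without IFNg to 186 (7.32, 8.31 and 6.40 CPM), at least 63.0-fold higher than unstimulated (adjusted p = 2.3e-13). The summed level of the leukocyte markers in B16.1 was 1.60 to 1.87 CPM in the unstimulated libraries and 13.0 to 14.9 CPM with IFNg. Of the 12 markers 2 had over 3 counts there, 4 could be tested over all lines and 1 rose (27.6% of all genes). The part of these markers in the result was not tested.

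In YUMMER1.7 Acod1 went from 0.414, 0.36 and 0.177 CPM to 7.97, 11.4 and 7.94 CPM, a 30.8-fold difference (log2 4.83 ± 0.49 SE, adjusted p = 5.14e-11). In LLC it went from 0 counts to 18 (0.493 and 0.302 CPM), at least 6.19-fold higher (adjusted p = 0.000242). The groups did not overlap in these 4 lines. CT26.2 had 1 count unstimulated and 5 with IFNg (adjusted p = 0.183), and MC38.7, Panc02.3 and Renca had at most 4 counts in any group. Panc02.3, where Ido1 and Nos2 rose as in KPC.2, had 1 count of Acod1 with IFNg, a group in which 3 counts equal 0.268 CPM. In KPC.2 the fitted log2 change of 7.85 became 10.24 without unstimulated replicate 2, which held the only count, and 7.26 without replicate 1.

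With IFNb Acod1 passed in 0 lines by edgeR, DESeq2 and limma-voom (0 at an unadjusted p under 0.05), the most being 15 counts in YUMMER1.7 (1.28, 0.461 and 0.342 CPM) against 9 unstimulated (log2 1.04 ± 0.62 SE, adjusted p = 0.596). IFNg exceeded IFNb in B16.1 (at least 55.5-fold), KPC.2 (a ratio of 135 with a counting interval from 24.1), YUMMER1.7 (14.9-fold) and LLC (a ratio of 14.6 with a counting interval from 2.3). Without the 1 IFNb library that held the only count, the fitted log2 difference went from 6.96 to 10.24 in KPC.2 and from 3.38 to 4.97 in LLC, and without IFNb replicate 1 it went from 6.96 to 6.29 in KPC.2 and from 3.79 to 4.47 in YUMMER1.7. The IFNg response differed between lines (adjusted p = 0.000418; 69.2% of all genes), also over the 5 lines with counts in both groups, chosen after seeing the data (adjusted p = 0.000738).

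All 15 genes listed for citrate, the cycle around it and the electrophile response to itaconate passed the filter. With IFNg 3 rose and 8 fell when the 8 lines were averaged, and with IFNb 1 rose and 10 fell (18.3% and 23.7%, and 13% and 17.3% of all genes). Idh1 and Idh2, the isocitrate dehydrogenases that use NADP, fell on that mean with IFNg by 0.63 ± 0.03 and 0.52 ± 0.03, and with IFNb by 0.41 ± 0.03 and 0.30 ± 0.03. The lines weigh equally in such a mean, and its SE leaves out the spread between them. For Idh1 with IFNg, Panc02.3 alone stood at -3.46 ± 0.12. Gclm, a subunit of the enzyme that starts glutathione synthesis, rose by 0.50 ± 0.03 with IFNg. Clybl, an enzyme that clears a product of itaconate breakdown, fell by 0.37 ± 0.06 with IFNb. In KPC.2, where Acod1 was highest, 3 rose and 6 fell with IFNg (13.8% and 15.8% of all genes). The largest changes were Hmox1, a heme-degrading stress gene (0.58 ± 0.17), and Idh2 (-0.58 ± 0.07). Panc02.3, which had 1 count of Acod1 with IFNg, had log2 changes of -3.46 ± 0.12 for Idh1, -1.27 ± 0.07 for Idh2 and 1.25 ± 0.11 for Hmox1. The difference between these lines in those genes was not tested, nor was a link to Acod1.

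Ch25h was highest in KPC.2 under every treatment and rose in 1 line, LLC, with IFNb. KPC.2 held 7.51, 10.2 and 4.69 CPM unstimulated, 11.8, 9.42 and 9.83 CPM with IFNb and 8.64, 10.6 and 8.70 CPM with IFNg, ranges that overlap (log2 0.46 ± 0.47 SE, adjusted p = 0.739, and 0.30 ± 0.45, adjusted p = 0.688). In LLC it stood at 0.366, 0.325 and 0 CPM unstimulated and at 1.01, 0.906 and 1.46 CPM with IFNb, a 5.21-fold difference from 11 to 45 counts (log2 2.27 ± 0.61 SE, adjusted p = 0.00337). With IFNg the 2 LLC libraries held 0.246 and 0.227 CPM, a level below every IFNb library (log2 -2.22 ± 0.66 against IFNb, adjusted p = 0.00999). That last call was lost without either IFNg library (adjusted p = 0.0602 and 0.0902).

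In MC38.7 Ch25h had 2 counts unstimulated, 9 with IFNb and 33 with IFNg (0.558, 0.436 and 0.309 CPM). The IFNg libraries were all above the unstimulated ones, a ratio of 7.83 with a counting interval from 2.0, and the difference did not pass (adjusted p = 0.0745). It passed in limma-voom (adjusted p = 0.0012) and without unstimulated replicate 2, which held both counts (adjusted p = 0.0253). The IFNb difference of MC38.7 (adjusted p = 0.158) passed under the same 2 settings (adjusted p = 0.0137 and 0.0340). B16.1, CT26.2 and Renca had 0 counts in every library, and Panc02.3 and YUMMER1.7 had 1 and 2 counts in all. A lncRNA, Gm26902, overlaps Ch25h on the opposite strand. The test for a difference of the response between lines did not pass for either cytokine (adjusted p = 0.335 for IFNb and 0.226 for IFNg) nor for IFNg against IFNb (0.136). Over KPC.2, LLC and MC38.7, the 3 lines with counts in both groups, chosen after seeing the data, it passed for IFNg against IFNb (adjusted p = 0.0333) and not for IFNb (0.151) or IFNg (0.161).

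Of the oxysterol genes 13 of 15 passed the filter, all but Gpr183 and Cyp7b1, the latter an enzyme that acts on the product of Ch25h. When the 8 lines were averaged 2 rose and 6 fell with IFNg, and 0 rose and 6 fell with IFNb (18.3% and 23.7%, and 13% and 17.3% of all genes). Insig1 and Insig2, which hold the sterol sensor in the endoplasmic reticulum, fell with IFNg by 0.76 ± 0.03 and 0.38 ± 0.03. Insig1 carried most of this in Panc02.3 (-3.07 ± 0.10) and B16.1 (-2.49 ± 0.07), lines with 1 and 0 counts of Ch25h. Whether Ch25h has a part in these changes was not tested. Insig2 rose in KPC.2 by 0.59 ± 0.09. Cyp46a1, which makes another hydroxycholesterol, fell by 0.73 ± 0.26 with IFNg and 1.15 ± 0.34 with IFNb. In KPC.2, where Ch25h was highest, 6 genes rose and 2 fell with IFNg (13.8% and 15.8% of all genes). They were led by Abcg1 (1.30 ± 0.36) and Abca1 (-1.05 ± 0.25), sterol exporters that moved in opposite directions. With IFNb 0 changed in KPC.2, where 2.52% of all genes rose and 1.93% fell.

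Wars rose with IFNg in 6 lines and had at least 38 counts in every library. In KPC.2 it went from 71.5, 71.3 and 77.7 CPM to 2309.9, 2396 and 2248 CPM, a 31.7-fold difference (log2 4.98 ± 0.12 SE, adjusted p = 1.17e-41). In Panc02.3 it went from 199, 96.2 and 146 CPM to 1548, 1419.6 and 1396 CPM, a 9.72-fold difference (3.29 ± 0.10, adjusted p = 1.15e-34). KPC.2 exceeded the mean of the other 7 lines by 3.69 ± 0.12 on the log2 scale (adjusted p = 5.76e-33) and Panc02.3 by 1.76 ± 0.11 (adjusted p = 2.43e-21).

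In YUMMER1.7 Wars went from 97.1, 88.0 and 75.2 CPM to 301, 324 and 324 CPM (1.87 ± 0.10, adjusted p = 1.5e-22), and in CT26.2 from 369, 369 and 363 CPM to 1064, 1153 and 1219 CPM (1.64 ± 0.10, adjusted p = 7.56e-21). In B16.1 it rose 1.99-fold from a mean of 119 ± 2.74 CPM (SD, n = 3) to 237 ± 1.86 (0.99 ± 0.10, adjusted p = 1e-12), and in LLC it rose from 96.6 ± 5.09 CPM (n = 3) to 173 ± 5.79 (n = 2; 0.84 ± 0.11, adjusted p = 8.7e-09). The departures of CT26.2 and YUMMER1.7 from the other lines did not pass (adjusted p = 0.553 and 0.565).

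MC38.7 and Renca were the 2 lines without a call. MC38.7 held 158, 159 and 158 CPM unstimulated and 177, 177 and 185 CPM with IFNg, and Renca 323 and 324 CPM against 373, 396 and 388 CPM. In both every IFNg library lay above every unstimulated one, by log2 0.18 ± 0.10 (adjusted p = 0.424) and 0.25 ± 0.11 (adjusted p = 0.125). With so few libraries such a separation can arise without a change. Fitted alone, each line passed (0.16, adjusted p = 0.00277, and 0.28, adjusted p = 0.0255), and Renca also passed in limma-voom (adjusted p = 0.0492) and without the filter on low counts (adjusted p = 0.00684). Both changes were below the mean of the other lines, by 1.80 ± 0.11 in MC38.7 (adjusted p = 1.22e-20) and 1.72 ± 0.11 in Renca (adjusted p = 5.22e-19). Irf1 rose in the same libraries by 2.88 and 2.93.

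With IFNb Wars changed in 2 lines, in opposite directions. In LLC it rose to 175, 188 and 186 CPM (0.92 ± 0.10, adjusted p = 1.49e-11), close to its IFNg libraries at 169 and 177 CPM, and the difference between the cytokines of -0.08 ± 0.11 did not pass (adjusted p = 0.649). In MC38.7 it fell from 158, 159 and 158 CPM to 121, 120 and 115 CPM (-0.41 ± 0.10, adjusted p = 0.00104). LLC lay above the mean of the other 7 lines by 1.02 ± 0.11 (adjusted p = 2.06e-11) and MC38.7 below it by 0.51 ± 0.11 (adjusted p = 0.00037). In the other 6 lines the log2 change lay between -0.11 and 0.06. In Panc02.3 it was -0.08 (adjusted p = 0.805), and without unstimulated replicate 2, at 96.2 CPM the lowest of a widely spread group, it was -0.29 (adjusted p = 0.0208).

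IFNg exceeded IFNb for Wars in 7 lines, all but LLC. The difference was largest in KPC.2 (4.92 ± 0.12) and smallest in Renca (0.29 ± 0.09, adjusted p = 0.0398; 5.25% of all genes), where it was lost when replicate numbers entered as a block (adjusted p = 0.0516) and without any one of 5 libraries, IFNb replicates 1, 2 and 3 (adjusted p = 0.134, 0.0602 and 0.121) and IFNg replicates 2 and 3 (adjusted p = 0.138 and 0.0768). Unstimulated Wars was highest in CT26.2 (367 ± 3.56 CPM, SD, n = 3) and Renca (323 ± 0.193, n = 2), followed by MC38.7 (158 ± 0.689), Panc02.3 (147 ± 51.6), B16.1 (119 ± 2.74), LLC (96.6 ± 5.09), YUMMER1.7 (86.7 ± 11) and KPC.2 (73.5 ± 3.61). Panc02.3 overlapped MC38.7, B16.1, LLC and YUMMER1.7, and YUMMER1.7 overlapped LLC and KPC.2. KPC.2 thus had the lowest mean without cytokine and the highest with IFNg. The unstimulated level differed between lines for all 6 tested members, as it did for 96.5% of all genes.

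The other aminoacyl-tRNA synthetases charge tRNAs with the other amino acids. Of 20 listed (Wars2, the mitochondrial tryptophanyl enzyme, among them) all were tested, and 14 rose and 2 fell when the 8 lines were averaged, with a median log2 change of 0.22 against -0.04 over all genes (18.3% and 23.7% of which rose and fell). With IFNb 5 rose and 1 fell (13% and 17.3% of all genes), with a median of 0.01. Kars, for lysine, rose with IFNg in all 8 lines, by 0.29 in MC38.7 to 1.17 in Panc02.3 and by 0.70 ± 0.02 on the mean. Rars, for arginine, rose by 0.53 ± 0.02 and Farsb, for phenylalanine, by 0.42 ± 0.03, both most in Panc02.3 (2.35 ± 0.07 and 1.82 ± 0.08). Mars, for methionine, fell with IFNb by 0.17 ± 0.03, while Rars and Kars rose by 0.14 ± 0.02 and 0.13 ± 0.02.

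**Figure D4:**
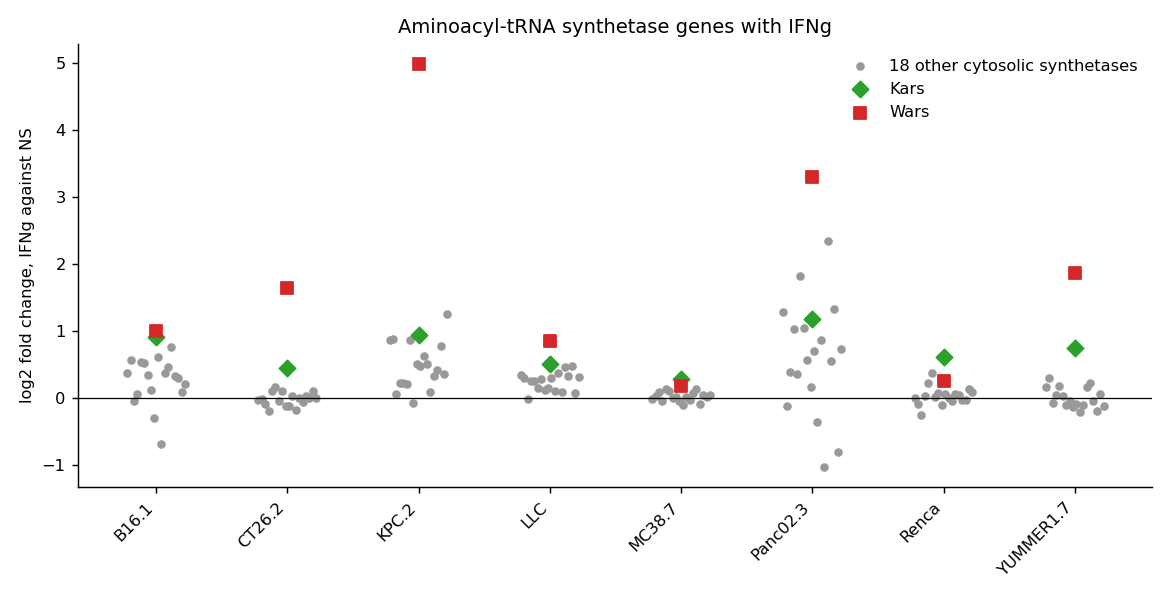
log2 fold change with IFNg against unstimulated cells for Wars (red), Kars (green) and 18 other cytosolic synthetase genes (grey) in each line. Wars lies above all 19 others in 6 lines, by most in KPC.2 (4.98 against at most 1.26), and below Kars in MC38.7 and Renca.

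With IFNg 15 of the 20 rose in KPC.2, 14 in Panc02.3, 13 in B16.1 and 12 in LLC, but 4 in YUMMER1.7, 3 in Renca, 1 in CT26.2 and 1 in MC38.7, and the share of all genes that rose in these lines is given above. In KPC.2 the 2 largest were Yars, for tyrosine (1.26 ± 0.08), and Kars (0.93 ± 0.06). In LLC with IFNb 14 rose and 0 fell (17.6% and 21% of all genes), the line where Wars rose with that cytokine. In MC38.7 with IFNb 2 rose and 5 fell (13.8% and 16.8%), the line where Wars fell. In B16.1 with IFNb 1 rose and 6 fell (14.6% and 14.3%) and in Panc02.3 1 rose and 4 fell (3.33% and 2.82%), lines where Wars had log2 changes of -0.04 and -0.08 that did not pass. In CT26.2 and YUMMER1.7 Wars rose by 1.64 and 1.87 beside a median of -0.01 and -0.05 over the 20 others. Counts of these kinds describe the lists, and no test of the lists against other genes was made.

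Synthetase genes are among the known targets of ATF4, the transcription factor of the amino acid response. Of the 9 genes listed for it (Atf4 and other targets) all rose on the mean with IFNg (18.3% of all genes). By line 9 of 9 rose in KPC.2 (13.8% of all genes), 8 in Panc02.3 (23.2%), 7 in LLC (6.65%) and 5 in B16.1 (27.6%). In YUMMER1.7 (9.79%) and CT26.2 (4.97%) 1 rose in each, and 0 in MC38.7 (3.89%) and Renca (6.04%). In B16.1 and YUMMER1.7 1 fell in each (26.5% and 11% of all genes). The 3 largest were Ddit3 (1.17 ± 0.06), Trib3 (0.84 ± 0.07) and Chac1 (0.57 ± 0.08), which encode a stress-induced transcription factor, a pseudokinase and a glutathione-degrading enzyme. In KPC.2 Trib3 rose by 2.35 ± 0.27 and Slc7a11, the cystine transporter, by 2.08 ± 0.20. With IFNb 9 of 9 rose in LLC (17.6% of all genes), where Ddit3 rose by 2.65 ± 0.16 and Trib3 by 2.45 ± 0.20, while 2 rose and 6 fell in B16.1 (14.6% and 14.3% of all genes) and 0 rose and 4 fell in Panc02.3 (3.33% and 2.82%).

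The members did not share one pattern over the 24 groups. Between members, Pearson's r of the mean log2 CPM over the 24 group means was highest for Ido1 and Nos2 (0.65), Nos2 and Wars (0.64), Ido1 and Ch25h (0.63) and Ido1 and Wars (0.60), and near 0 for Gch1 with Acod1 (-0.09), Ch25h (-0.10) and Ido1 (0.08). Groups of one line share their background and libraries share their scaling, so these values are descriptions. The named genes most like each member were Cyp4a12a, Crisp1 and Gpa33 for Ido1 (0.80, 0.79 and 0.78), all highest in KPC.2 with IFNg, and Cndp2, H2-Ab1 and Slc6a19 for Nos2 (0.89, 0.87 and 0.82). Gch1 was most like Ahcyl1, Ift43 and Znrd1as (0.92, 0.91 and 0.90), and Acod1 most like Serpina3g, Ubd and Calhm6 (0.93, 0.92 and 0.92), which peaked with IFNg in KPC.2 or YUMMER1.7. Ch25h was most like Zfp286, Cdcp1 and Rtl6 (0.97, 0.96 and 0.96), all highest in KPC.2. For Wars the closest were Olfr1156, Olfr107 and Apol7b (0.80, 0.78 and 0.74), genes that stayed at or under 5.29 CPM in every group mean. Where a member has 0 or few counts in most groups, such a likeness rests on the few groups above that level.

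By line, KPC.2 with IFNg held the highest mean of Ido1, Nos2, Acod1 and Wars over the 24 groups (317, 131, 15.3 and 2318 CPM), and with IFNb only Gch1 rose there. B16.1 with IFNg gave Acod1, Gch1 and Wars without Ido1. LLC was the line with most members raised by IFNb: Nos2, Gch1, Ch25h and Wars. Renca had high Nos2 and Gch1 without cytokine, and by the main edgeR model IFNg raised only Ido1 in it. Wars in Renca passed with IFNg in limma-voom, without the filter on low counts and with the line fitted alone. YUMMER1.7, where 0 members rose with IFNb, gave Ido1, Nos2, Acod1 and Wars with IFNg.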

How the data were processed

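RNA was extracted with a column kit and made into strand-specific libraries, per the labels' protocols. The submitters' processing notes name Trimmomatic 0.36, kallisto (version not given) and the build mm10/GRCm38. What the authors deposited is a gene table of estimated counts, with no scaling between the 70 libraries. Its values were whole numbers and were used as they stood. How transcripts were summed to genes is not given in the sources used here. The labels name no batch or date.

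From these estimated counts, edgeR 4.0.16 in R 4.3.3 fitted 1 quasi-likelihood model with 24 groups of line and treatment (TMM scaling, filterByExpr, prior degrees of freedom 9.22). Contrasts were taken within each line, as the mean of the 8 lines, as an F test that the lines' differences are equal, and for each line against the mean of the other 7. SE is the size of the log2 change divided by the square root of F. For a mean of the 8 lines it reflects the spread between libraries, not between lines. CPM is counts per 1000000 of the TMM-scaled library size. A fold against 0 counts is a lower bound against 3 counts over the group, and with 1 to 3 counts the ratio has an exact 95% binomial counting interval. Both cover counting error only. Fitted log2 changes of genes with a group at 0 depend on the prior count.

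Alternatives were a replicate block, DESeq2 1.42.0, limma-voom (limma 3.58.1), RLE size factors, no filter on low counts, each line fitted alone, and leaving out each library. In the last, dispersions were kept from the full fit and only contrasts with that library's group were tested again. Of same-numbered libraries 18 of 68 pairs had a correlation of their deviations over 0.1, and the main model did not take the numbers as pairs. By line, 4 of 9 such pairs were over 0.1 in KPC.2, 3 of 7 in LLC and 0 of 9 in MC38.7. Over all lines same-numbered pairs ran from -0.476 to 0.324 and the other pairs from -0.418 to 0.412. A pairing in single lines stays possible.

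Members, lists and tests were chosen with earlier results of these data known. Named genes were the members, the 3 genes most like each tested member (Pearson's r of log2 CPM, prior count 2, over 24 group means, predicted loci left out), up to 3 genes per list with the largest called change on the mean of the lines and up to 2 in the line where a member is highest, and Irf1 and Socs1; some genes that this rule names are not reported here. Other named list genes were chosen after their values were seen. Wdr25 overlaps Wars and 2 pseudogenes overlap Gch1 in GENCODE, so reads there could be shared.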

Additional observations from a re-analysis of the deposited data

Results flagged for a closer look

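The response of 5 of the 6 tested members differed between the 8 lines in at least 1 comparison, by a test of the difference itself (edgeR, adjusted over all genes). Against unstimulated cells, IFNg gave an adjusted p of 0.00042 for Acod1, 5.1e-09 for Gch1, 6.4e-18 for Nos2 and 1.3e-36 for Wars. IFNb gave 7.7e-10 for Gch1, 0.00033 for Nos2 and 1.7e-09 for Wars. The difference between the 2 cytokines itself varied between lines for Acod1 (0.0028), Gch1 (1.4e-13), Ido1 (6.2e-06), Nos2 (1.5e-11) and Wars (2.9e-36). Such a difference was also called for 69.2%, 48.2% and 70.1% of all genes in these 3 comparisons. The 3 comparisons share libraries.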

How the results depend on the processing

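Among the counts of members called, 1 moved by over 1.5 times: members risen on the mean of the lines with IFNb was 1 in edgeR and 2 in limma-voom and DESeq2. Leaving out each library in turn gave 23 to 25 rises and 0 falls with IFNg, 7 to 9 rises and 2 to 3 falls with IFNb, and 23 to 25 rises and 3 to 4 falls of IFNg against IFNb. Members risen on the mean numbered 3 to 4, 1 and 2 to 3, and those that differed between lines 4 to 5, 3 and 5. Of single member tests, 108 of 109 kept their side of the threshold with RLE size factors, 104 of 109 in limma-voom and without the filter, 105 of 109 with each line fitted alone, 103 of 107 in DESeq2 and 613 of 635 without 1 library; none that passed changed direction. RLE size factors changed the direction of no called list gene. Some list counts moved, such as the synthetases raised by IFNb in KPC.2, 3 with TMM and 6 with RLE.

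With a replicate block 106 of 109 member tests kept their side, and 3 calls were lost: Nos2 with IFNb in MC38.7 (log2 3.01, adjusted p = 0.0505), and IFNg against IFNb for Ido1 in CT26.2 (5.21, adjusted p = 0.153) and Wars in Renca (0.29, adjusted p = 0.0516). Same-numbered libraries correlated from -0.476 to 0.324. Depth limits Ido1, Acod1, Ch25h and Kynu most, since 3 counts over a group equal 0.0389 to 0.335 CPM.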
